A study of Mus musculus with 2040 samples.

Results

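The 7 genes described here handle iron in brain cells: Trf, Fth1, Ftl1, Tfrc, Slc40a1, Cp and Slc11a2. They are 7 of the 32245 gene columns of a table of single-cell expression values from mouse brain, and were chosen by name. Iron travels between cells bound to transferrin, which Trf encodes, and enters them with the transferrin receptor, which Tfrc encodes. Slc11a2 encodes DMT1, the transporter that moves iron out of the endosome into the cytosol. Inside the cell iron is stored in ferritin shells built of a heavy chain (Fth1), which oxidises the metal, and a light chain (Ftl1), which helps to mineralise it. Iron leaves through ferroportin (Slc40a1), helped by the copper oxidase ceruloplasmin (Cp). In the brain, oligodendrocytes, the cells that make myelin, are known as the most iron-rich cell type and as a major source of transferrin. Astrocytes sit between blood vessels and neurons and are known to pass iron on.

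The cells came from C57Bl/6J mice that had each received 1 AAV vector, a virus whose reporter is driven by a named enhancer or promoter. Single cells positive for the yellow reporter SYFP2 were sorted by flow cytometry, and full-length cDNA was made with the SMARTer v4 chemistry. VISp (primary visual cortex) came from 41 mice with 27 vectors and 1785 cells, MB/HB (midbrain and hindbrain) from 4 mice with 2 vectors and 174 cells, and CBX (cerebellar cortex) from 2 mice with 1 vector and 81 cells. The CBX vector was eHGT_375m (MouseID-614198 and MouseID-651221), and the MB/HB vectors were eHGT_381h (MouseID-615516 and MouseID-651222) and MGT_E160m (MouseID-651228 and MouseID-651229). The cells of each vector came from a single tissue, so tissue and vector cannot be told apart, and every cell compared here had taken up a virus. There was no group without a vector, and ages were not used here. The mouse is the replicate, and cells of 1 mouse are not.

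Values are CPM, reads of a gene scaled to 1000000 reads of the cell, averaged over the cells of a class in each mouse. Cell classes were rebuilt by clustering, without the 7 genes or other iron genes, and named from marker lists. All 81 CBX cells, 149 MB/HB cells and 739 VISp cells were astrocyte-like, while 927 VISp cells were oligodendrocyte-like. Mice with at least 10 cells of a class entered the comparisons: 2 CBX, 4 MB/HB and 19 VISp mice (12 vectors) for astrocyte-like cells, and 22 VISp mice (15 vectors, 920 cells) for oligodendrocyte-like cells. The 10 astrocyte markers summed to between 16575 and 24203 CPM in every astrocyte-like mouse of the 3 tissues. Median sequencing depth was 375425 reads a cell in CBX, 409814 in MB/HB and 437417 in VISp. CBX and MB/HB astrocyte-like cells lay mostly in clusters of their own, led by Gria1 and Lcat in CBX (cluster 8) and by Kcnd2 in MB/HB (cluster 4). To name clusters, leading genes were taken by how far their mean log2(CPM + 1) differed from that of the other cells. With genes ranked by the ratio of mean CPM, 6 of the 11 clusters stayed unnamed, because the top 10 genes then held more markers of another type than of their own. Among these were cluster 8 with Pcp2, a Purkinje cell gene, cluster 4 with Lhfpl3, a precursor marker, and cluster 6 of the oligodendrocyte-like cells with 4 endothelial genes, so the tissue comparisons rest on the first ranking. RNA of another cell type was carried by 17 of the 81 CBX cells, 22 of the 149 MB/HB cells and 43 of the 739 VISp astrocyte-like cells.

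The messages of several members are themselves read by the cell's iron sensors. The iron regulatory proteins bind a hairpin, the iron-responsive element, when iron is low. In a 5′ UTR the bound hairpin blocks translation, and in a 3′ UTR it protects the message from decay. RNA levels as measured here therefore report Fth1, Ftl1 and Slc40a1 before this translational control, and Tfrc after the control of its decay. The hairpins are printed as the reason why RNA and protein of these members may part. A search of the GENCODE M21 transcripts (GRCm38, the mm10 build) looked for a C, a stem of 5 pairs (G:U pairs allowed) and the loop CAGTGN, on the transcript strand. In the windows of 30 bases below, written 5′ to 3′ as DNA, capitals mark the loop:
Fth1, 5′ UTR, chr19:9982731-9982760, plus strand: tttcctgcttcaaCAGTGCttgaacggaac
Ftl1, 5′ UTR, chr7:45459779-45459808, minus strand: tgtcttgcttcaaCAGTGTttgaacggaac
Slc40a1, 5′ UTR, chr1:45925465-45925494, minus strand: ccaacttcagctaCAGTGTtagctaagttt
Tfrc, 3′ UTR in exon 19, chr16:32631218-32631247, plus strand: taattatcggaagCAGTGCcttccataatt
Tfrc, 3′ UTR in exon 19, chr16:32631597-32631626, plus strand: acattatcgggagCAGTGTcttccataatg
Tfrc, 3′ UTR in exon 19, chr16:32631662-32631691, plus strand: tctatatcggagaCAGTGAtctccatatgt
Tfrc, 3′ UTR in exon 19, chr16:32631709-32631738, plus strand: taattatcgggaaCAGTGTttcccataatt
Of the 7 members, 4 held such a match in a UTR, against 160 of 21877 protein-coding genes (0.731%). The members were chosen by name as iron genes, so this count is not read as an enrichment. Trf (chr9:103204001-103230444, minus strand), Cp (chr3:19957054-20009145, plus strand) and Slc11a2 (chr15:100387898-100425072, minus strand) had none with these letters. A hairpin with another stem or loop is missed by this search, so Trf, Cp and Slc11a2 are not shown to lack an iron-responsive element. A match is a description of sequence and was not tied to any value below.

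In VISp, Trf and Fth1 separated the glial classes without overlap, Ftl1 was higher on average in oligodendrocyte-like cells with overlap, and the other 4 members overlapped. Trf was at 12094 to 22481 CPM in the 22 oligodendrocyte-like mice (mean 16533 ± 3052, SD), and every one of the 927 cells had a read of it. In the 19 astrocyte-like mice it was at 0 to 103 CPM with a median of 8.71, and 4 mice were at 0. The least Trf-rich oligodendrocyte-like mouse was far above the most Trf-rich astrocyte-like mouse. Because the classes come from the same cells, this comparison has no test.

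Fth1, the heavy ferritin chain, was at 14159 to 23497 CPM in oligodendrocyte-like mice (16835 ± 2116, SD, n = 22) and at 1713 to 2784 CPM in astrocyte-like mice (2232 ± 349, SD, n = 19), a ratio of means of 7.54. Ftl1, the light chain, was at 625 to 1252 CPM (999.9 ± 160, SD, n = 22) against 426 to 703 CPM (543 ± 81.2, SD, n = 19), a ratio of 1.84 with overlapping mice. The 2 chains thus differed between the classes by unlike amounts. The log2 ratio of Fth1 to Ftl1 CPM was 4.08 ± 0.29 (SD) in oligodendrocyte-like and 2.04 ± 0.23 in astrocyte-like mice, from 3.50 upwards in the former and up to 2.44 in the latter. This ratio ignores gene length and is read only between groups.

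The uptake genes were at like levels in both classes. Tfrc was at 45.3 ± 17.4 CPM (SD, n = 22) in oligodendrocyte-like and 56.3 ± 30.5 CPM (SD, n = 19) in astrocyte-like mice, and Slc11a2 at 38.7 ± 15.9 and 34 ± 17.4 CPM. Both were found in a minority of cells: Tfrc had a read in 31.3% and 31.7% of cells, and Slc11a2 in 28.6% and 20.6%. The export genes were near the limit of detection. Slc40a1 had a read in 2 of 927 oligodendrocyte-like cells and 15 of 739 astrocyte-like cells, and Cp in 28 and 6 cells.

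In all, 2 of the 7 members did not overlap between the classes, both higher in oligodendrocyte-like mice. Over the 3277 genes compared, 4.15% did not overlap and were higher in oligodendrocyte-like mice, and 6.56% did not overlap and were lower. Of a list of 40 other iron genes, 32 could be compared, with 3 higher and 2 lower without overlap. The 3 were Fbxl5, a sensor that degrades iron regulatory protein 2, at 538 ± 97.9 against 75.1 ± 20.9 CPM (SD), the haem oxygenase Hmox2 at 292 ± 57.3 against 42 ± 16.9 CPM, and the haem transporter Slc48a1 at 1787 ± 195 against 417 ± 79.1 CPM. The 2 lower genes were Aco1, which encodes iron regulatory protein 1, at 39.1 ± 11.8 against 103 ± 25 CPM, and the biliverdin reductase Blvrb at 6.48 ± 5.16 against 30 ± 9.35 CPM.

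**Figure D1:**
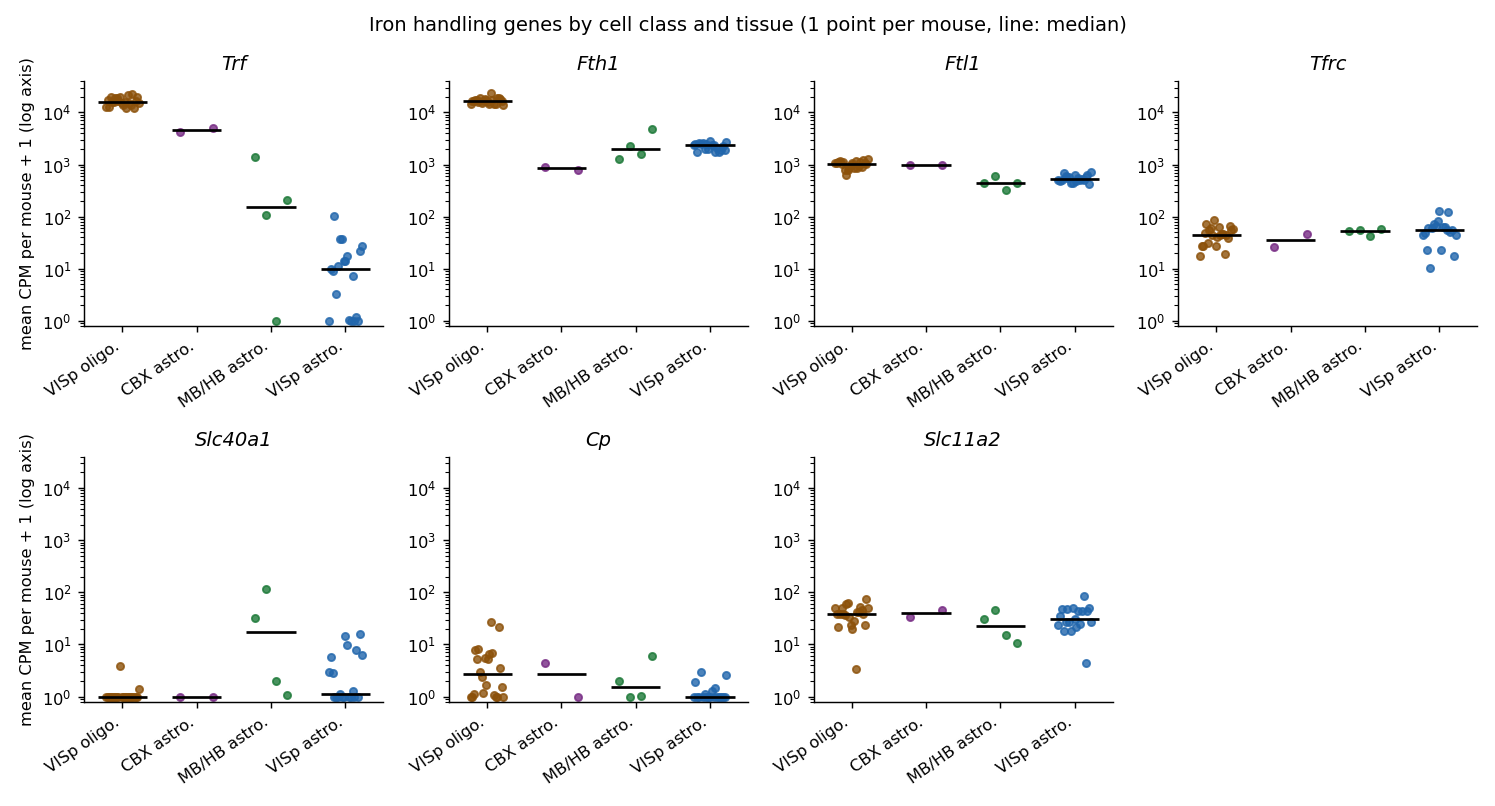
Mean CPM per mouse plus 1 (log axis) of each of the 7 genes in VISp oligodendrocyte-like cells (22 mice) and in astrocyte-like cells of CBX (2), MB/HB (4) and VISp (19); points are mice and lines are medians. Trf spans from 12094 to 22481 CPM in oligodendrocyte-like mice down to 0 in some VISp and MB/HB astrocyte-like mice, with both CBX mice at 4181 CPM or more, while Tfrc and Slc11a2 overlap in all 4 groups.

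Oligodendrocyte-like cells were not uniform in these genes. They fell into 4 clusters, built without the members: cluster 0 (428 cells), cluster 3 (283 cells, led by Gpd1 and Slc2a1), cluster 5 (110 cells, led by Selenop and Itgb4) and cluster 6 (106 cells, led by Cldn11 and Camk1d). Trf was highest in cluster 5, at 25590 ± 4705 CPM (SD over 15 mice with at least 3 cells), and lowest in cluster 6, at 10307 ± 936 CPM (7 mice). Clusters 0 and 3 lay between, at 15481 ± 2295 (21 mice) and 17034 ± 2734 CPM (20 mice). Within mice the order was the same: cluster 5 exceeded cluster 0 in 14 of 14 mice and cluster 3 in 15 of 15, and cluster 6 was below cluster 0 in 7 of 7.

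Ferritin did not follow Trf across these clusters. Fth1 was at 20797 ± 2488 CPM in cluster 6 and 19474 ± 2165 CPM in cluster 5, above cluster 0 (16571 ± 1733) and cluster 3 (14580 ± 1764). In cluster 6, where Trf was lowest, Fth1 exceeded cluster 0 in 7 of 7 mice. Ftl1 was also highest in cluster 6, at 1393 ± 132 CPM, and was lowest in cluster 5, at 814 ± 159 CPM. Cluster 5 thus combined the highest Trf with a high Fth1 and a low Ftl1, which was below cluster 0 in 14 of 14 mice. Tfrc had a read in 55.5% of cluster 5 cells and in 20.6% of cluster 0 cells, whose median depths were 466444 and 437200 reads. Within mice its mean CPM was higher in cluster 5 in 9 of 14 mice and higher in cluster 0 in the other 5. Endothelial markers had a mean sum of 6.73 CPM in cluster 6 and 0.915 CPM in cluster 0, with a median of 0 in both, and reached 10 CPM in 4 of the 106 cells of cluster 6. In the 102 other cells the mean was 10470 CPM for Trf and 20919 CPM for Fth1, against 10437 and 20910 CPM over all cells of the cluster. These are descriptions of clusters, with no test.

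**Figure D2:**
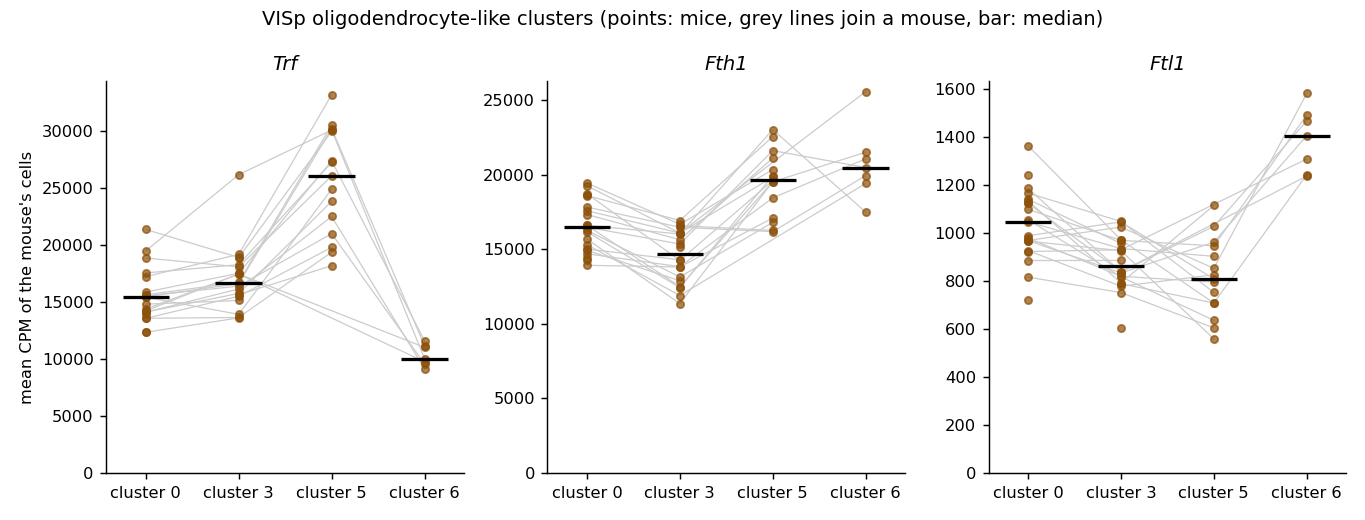
Mean CPM of Trf, Fth1 and Ftl1 in the 4 VISp oligodendrocyte-like clusters; points are mice with at least 3 cells of the cluster, grey lines join the values of a mouse, and bars are medians. Trf peaks in cluster 5 and is lowest in cluster 6, Fth1 is high in both, and Ftl1 is highest in cluster 6.

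Between vectors, no difference in any member was called in VISp oligodendrocyte-like cells. The 12 mice of the 5 vectors with at least 2 mice were compared with limma's F-test, in which 1 of 2540 genes (0.0394%) passed a Benjamini-Hochberg adjusted p of 0.05. Vector means of log2(mean CPM + 1) spanned 0.53 for Trf (adjusted p = 0.895), 0.37 for Fth1 (0.910) and 0.51 for Ftl1 (0.910). Slc40a1 was too low to be tested.

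Astrocyte-like cells differed by tissue in Trf and in both ferritin chains. Trf was at 4181 CPM in CBX mouse MouseID-614198 and 4998 CPM in MouseID-651221. In MB/HB it was at 0 (MouseID-651228), 106 (MouseID-651222), 204 (MouseID-651229) and 1417 CPM (MouseID-615516), and in VISp at 0 to 103 CPM. Both CBX mice stood above every other astrocyte-like mouse and below every oligodendrocyte-like mouse. The log2 change of CBX over VISp was 9.37 (SE 1.67, limma adjusted p = 0.000151). Fold changes here are on the log2(mean CPM + 1) scale, and for a gene with mice at 0, as Trf in VISp, they depend on the 1 CPM that is added.

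Fth1 moved the other way. It was at 910 and 795 CPM in the CBX mice, below all 19 VISp mice (1713 to 2784 CPM), with a log2 change of −1.37 (SE 0.26, limma adjusted p = 0.000304). Ftl1 was at 976 and 960 CPM in CBX, above all VISp mice (426 to 703 CPM), with a log2 change of 0.85 (SE 0.19, adjusted p = 0.00183). The log2 ratio of Fth1 to Ftl1 CPM was −0.10 and −0.27 in the 2 CBX mice, against 1.74 to 2.44 in VISp. So 3 of the 7 members were called between CBX and VISp, 2 higher and 1 lower, where 331 of 3272 genes tested (10.1%) were called in either direction. The members' median log2 change was 0.38, against −0.07 over all genes tested.

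Each CBX result rests on 2 mice. Without MouseID-614198 or without MouseID-651221, Trf (limma adjusted p = 0.0105 and 0.0151) and Fth1 stayed below 0.05, and Ftl1 was no longer called (0.0592 and 0.0590), although its log2 change was 0.83 to 0.86. In these fits CBX is 1 mouse that is assumed to vary like the mice of the other tissues, so they carry no spread within CBX. The number of genes called fell to 192 and 139. Within library prefix AB-S40319, with 1 CBX and 5 VISp mice, the log2 change was 10.38 for Trf (limma adjusted p = 0.00867), −1.48 for Fth1 (0.0114) and 0.71 for Ftl1 (0.255), where the spread comes from the VISp mice alone. Markers of cerebellar neurons moved with CBX: 5 of 7 were higher and 1 lower than in VISp, and their sum was 93.0 to 180 CPM in CBX and 80.3 to 198 CPM in VISp. Without the cells that carry RNA of another type, the log2 change of Trf was 9.68.

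The other 4 members were not called between CBX and VISp, though 1 of 18 alternatives gave a call for Slc11a2. Tfrc was at 24.7 and 45 CPM in CBX (adjusted p = 0.769) and Slc11a2 at 32.9 and 44.9 CPM (0.849), both within the range of the VISp mice. Slc40a1 had no read in any of the 81 CBX cells, which allows a share of cells with a read of up to 3.70% (3 cells of 81; the exact 95% interval reaches 4.45%), against 15 of 739 cells (2.03%) in VISp. Such a difference was not detectable at this number of cells. Cp was at 0 and 3.37 CPM, with 4 of 81 cells having a read.

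**Figure D3:**
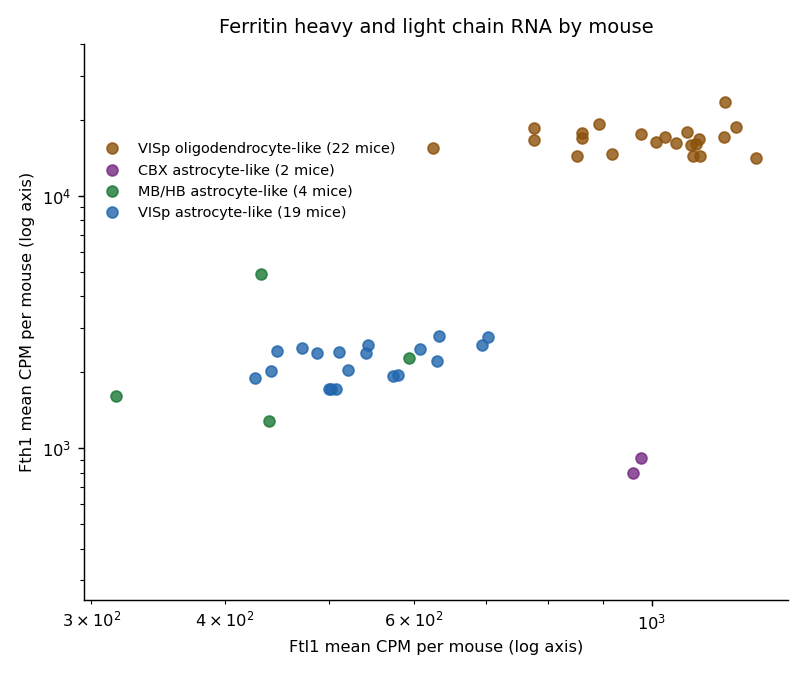
Mean CPM of Fth1 against Ftl1 (both log axes), 1 point per mouse, coloured by class and tissue. The 2 CBX mice stand at Fth1 values of 795 and 910 CPM below all other mice, at Ftl1 values of 960 and 976 CPM within the range of the oligodendrocyte-like mice.

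The MB/HB astrocyte-like mice spread widely, and no member was called against VISp, where 365 of 3272 genes (11.2%) were. The log2 change of Trf was 3.44 (SE 1.24, limma adjusted p = 0.0715). Single mice moved this value both ways. Without MouseID-651228, in which all 41 cells lacked Trf, the change was 5.51 (limma adjusted p = 0.0012), and without MouseID-615516 it was 2.02 (0.390). Of 17 alternatives, 2 gave a call for Trf, the other being the mean over cells of log2(CPM + 1) (1.23, adjusted p = 0.00841). Ftl1 had a log2 change of −0.31 (SE 0.14, limma adjusted p = 0.169) and was called in 4 of 17 alternatives. Fth1 was at 1285, 1611, 2280 and 4888 CPM, and the mouse at 4888 CPM (MouseID-651229) also had the highest sum of oligodendrocyte markers, 6262 CPM against 839 to 1514 CPM in the other 3 mice. Whether that RNA has a part in its Fth1 was not tested.

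Slc40a1, the iron exporter, was at 0.069, 1.01, 31.5 and 114 CPM in the MB/HB mice, from 6 of 149 cells, and at 0 to 14.6 CPM in VISp (adjusted p = 0.166). These means rest on single cells, and 1 of 16 alternatives gave a call. The 114 CPM of MouseID-651222 came from 1 of 32 cells, at 3653 CPM, and the 31.5 CPM of MouseID-615516 from 3 of 40 cells, at 633, 555 and 74.2 CPM. Endothelial markers moved with MB/HB: all 6 were higher than in VISp, and their sum was 7.22 to 561 CPM against 0.78 to 23.1 CPM. Ferroportin is also made by endothelial cells, and the part of such RNA in the Slc40a1 values was not tested.

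Directly between CBX and MB/HB, Fth1 was lower in CBX (log2 change −1.36, SE 0.30, limma adjusted p = 0.00281) and Ftl1 higher (1.15, SE 0.22, 0.000473). These 2 of 7 members were called where 280 of 3272 genes (8.56%) were. For Slc11a2, 1 of 17 alternatives gave a call. Trf was not called, at a log2 change of 5.94 (SE 1.95, adjusted p = 0.0534). It was called in 7 of 17 alternatives, among them a setting without the Trf-rich MB/HB cells of the CBX cluster, which are described next. Leaving out MouseID-615516 gave 7.35 (limma adjusted p = 0.0136) and leaving out MouseID-651228 gave 3.86 (0.184), while without either CBX mouse the adjusted p was 0.236 and 0.299. Fth1 lost its call without MouseID-651221 (adjusted p = 0.0780). The 3 tissue contrasts share samples and are not independent of each other.

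The Trf of MB/HB MouseID-615516 lay in few cells. Of its 40 astrocyte-like cells, 6 fell in cluster 8, with 78 of the 81 CBX cells, though Trf was not used to build it. These 6 cells had 4522, 5149, 5598, 7469, 13186 and 18395 CPM of Trf. All lay above the median of the CBX cells, 4128 CPM, whose highest value was 11280 CPM. Of the same mouse's 33 cells in cluster 4, 5 had a read of Trf and the mean was 71.1 CPM.

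The same 6 cells resembled CBX cells in ferritin. Their mean Fth1 was 887 CPM and their mean Ftl1 1095 CPM, a log2 ratio of −0.30, against 1363 and 300.2 CPM and 2.18 in the 33 cells of cluster 4. Their library prefixes were those of MouseID-615516, and 4 of the 6 had a prefix that no CBX cell carries. Without these 6 cells, the log2 change of Trf was 7.02 for CBX over MB/HB and 2.35 for MB/HB over VISp. This alternative was added after the cells had been seen. Leaving out Trf-rich cells lowers the Trf of MB/HB by construction, so no call is read from it.

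The next comparison asked whether Trf in CBX astrocyte-like cells goes with other oligodendrocyte RNA. Trf had a read in 80 of 81 CBX cells (98.8%, exact 95% interval 93.3 to 99.97), 27 of 149 MB/HB cells (18.1%, 12.3 to 25.3) and 51 of 739 VISp astrocyte-like cells (6.90%, 5.18 to 8.97). In VISp neuron-like cells, at a median depth of 431308 reads, the share was 15.5% (13 of 84 cells). The VISp astrocyte-like share was below it and is not read as expression of Trf. The interval of the MB/HB share includes 15.5%, so that share alone is not read as expression either. Of 15 MB/HB neuron-like cells 0 had a read, with an exact 95% interval up to 21.8%. Of the 84 neuron-like cells 14 carried RNA of another type, as did 8 of the 13 with Trf, and the highest had 6365 CPM of Trf. Among VISp astrocyte-like cells, 10 of the 51 with Trf (19.6%) and 22 of the 688 without it (3.20%) had at least 3 of 11 oligodendrocyte markers, those other than Cnp, at 10 CPM. With every cell thinned to 50000 reads, Trf had a read in 98.8% of CBX, 16.1% of MB/HB and 5.01% of VISp astrocyte-like cells. The share was 14.3% in VISp neuron-like cells. Intervals cover counting error only.

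Of 12 oligodendrocyte markers, 11 could be tested between CBX and VISp astrocyte-like mice, and 1 was called, a share near the 10.1% of all genes tested: Cnp, an enzyme of myelin-making cells, at 2018 and 1782 CPM in CBX against 164 to 430 CPM in VISp (log2 change 3.02, SE 0.28, limma adjusted p = 1.97e-09). The other 10 were not called, and their median log2 change was 0.32. Mbp, myelin basic protein, was at 113 and 76.3 CPM in CBX against 6.18 to 775 CPM in VISp (limma adjusted p = 0.904). Mal, a myelin membrane protein, was at 0 and 1.36 CPM against 0 to 14.6 CPM (0.882). Both genes overlapped between the tissues. Cldn11 and Ugt8a had no read in any CBX cell.

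**Figure D4:**
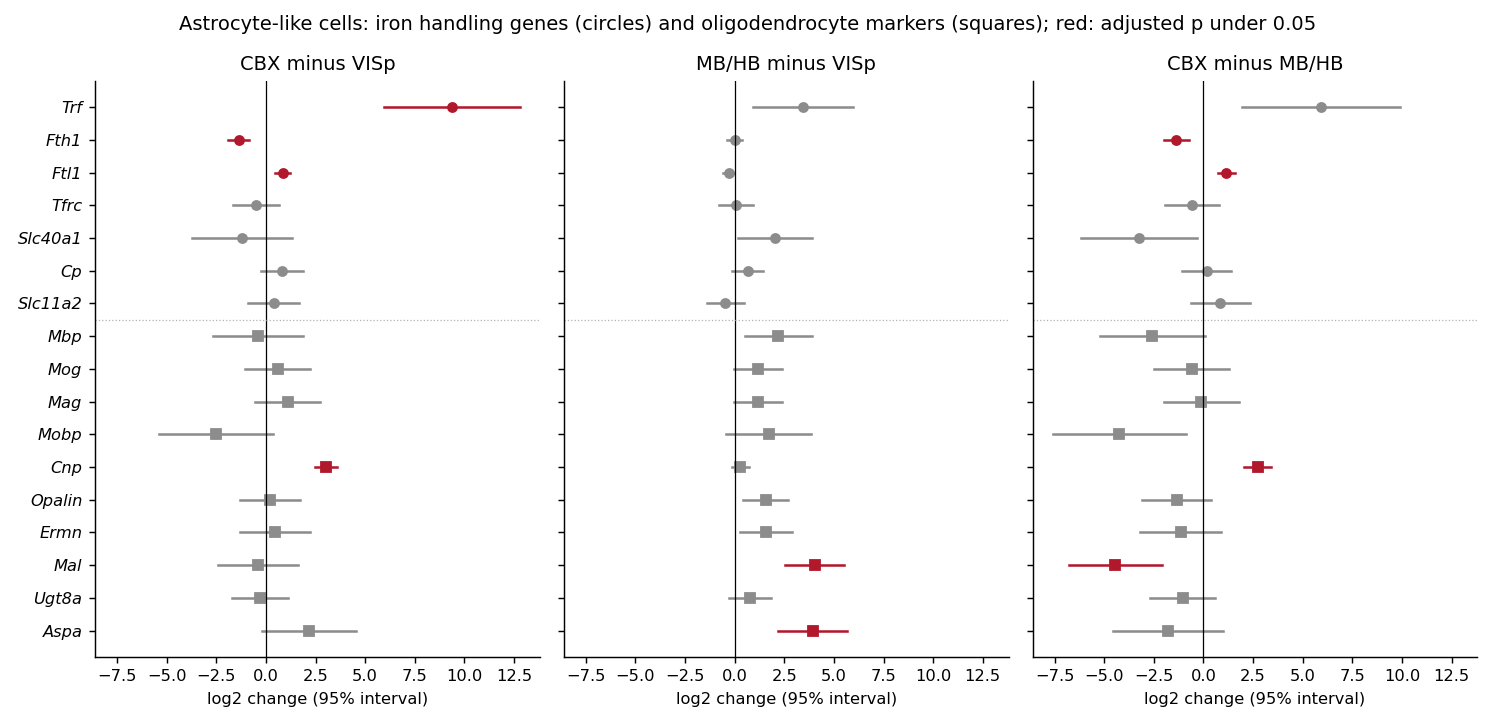
Log2 changes of log2(mean CPM + 1) with 95% intervals between astrocyte-like cells of 2 tissues, for the 7 genes (circles) and oligodendrocyte markers (squares); red marks an adjusted p under 0.05. Between CBX and VISp, Trf (9.37) and Cnp (3.02) are the only genes drawn with called rises above 1, while between MB/HB and VISp the called genes drawn are Mal and Aspa.

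Set against the sum of these markers, Trf was out of proportion in CBX. In VISp oligodendrocyte-like mice Trf CPM per CPM of the 12 markers was 0.198 ± 0.039 (SD, n = 22), and in the CBX mice it was 1.88 and 2.58. Most of the CBX marker sum was Cnp. Without Cnp, a choice made after the values were seen, the 11 markers summed to 206 and 153 CPM in the CBX mice. At the proportion of VISp oligodendrocyte-like cells, such sums go with 45.5 and 33.8 CPM of Trf, and the measured Trf was 91.9 and 148 times as high.

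In MB/HB the pattern differed among mice. Trf was 0.39, 0 and 0.16 times the amount that goes with the 11 markers in MouseID-651222, MouseID-651228 and MouseID-651229, and 9.09 times in MouseID-615516. Of 11 markers tested, 3 were called between MB/HB and VISp, all higher in MB/HB, against 11.2% of all genes tested. The median log2 change of the 10 other than Cnp was 1.65. Mal was among the 3 (log2 change 4.03, SE 0.73, limma adjusted p = 0.000191). In the 6 cells of cluster 8 the 11 markers summed to no more than 246 CPM, and Cnp was at 1133 to 1904 CPM.

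Cell by cell, CBX Trf was spread over the whole population. It had a median of 3995 CPM and a highest value of 10506 CPM in the 43 cells of MouseID-614198, and 4262 and 11280 CPM in the 38 cells of MouseID-651221. Of the 81 cells, 32 had none of the 11 markers at 10 CPM or more, and these had a mean of 4191 CPM of Trf (median 3780). The 49 cells with at least 1 such marker had a mean of 4808 CPM (median 4573). No CBX cell had more than 5 of the 11 markers at that level.

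Within MouseID-614198 the rank correlation of Trf with the marker sum was 0.029 over 43 cells, and within MouseID-651221 it was 0.21 over 38 cells. With Cnp it was −0.21 and −0.17. These are descriptions over cells that share a mouse, and counts of low markers are sparse.

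**Figure D5:**
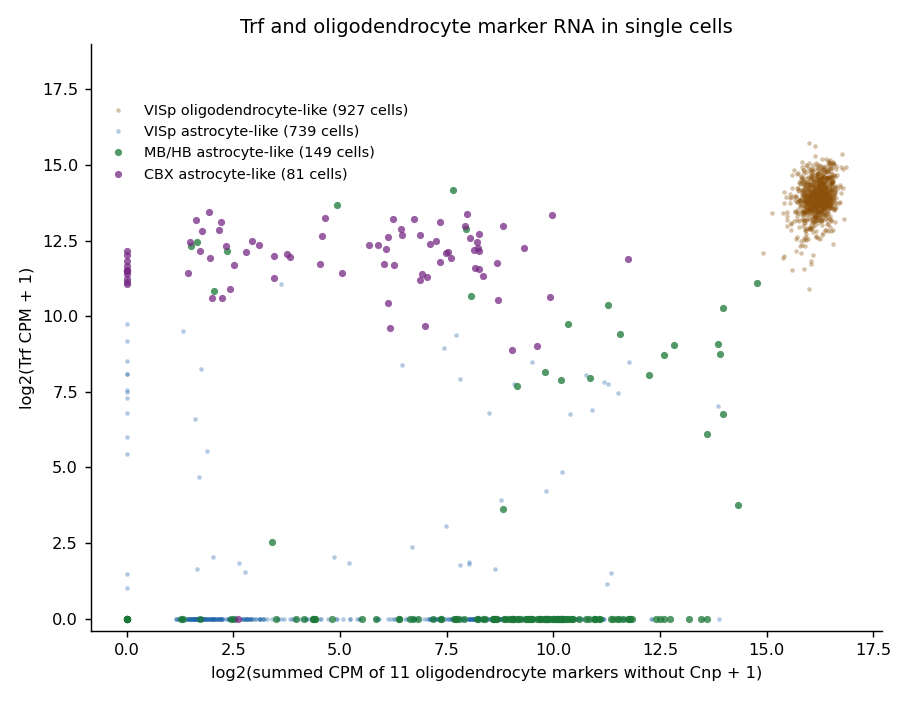
Log2(Trf CPM + 1) against log2 of the summed CPM of 11 oligodendrocyte markers plus 1, 1 point per cell. Cnp, at 1782 and 2018 CPM in the CBX mice, is left out of the sum, a choice made after the values were seen. CBX astrocyte-like cells have a median of 4128 CPM of Trf and begin at a sum of 0 for these 11 markers. Most VISp and MB/HB astrocyte-like cells lie at 0 on the Trf axis, and oligodendrocyte-like cells form a separate group high on both axes.

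Markers of other cell types were read in CBX in the same way. The 6 markers of ependymal or choroid plexus cells, the latter a known source of transferrin, summed to 7.25 and 21.4 CPM, with Ccdc153, Kl and Folr1 at 0 in all cells. Ttr was called higher in CBX than in VISp in that list. VISp mice had 0 to 4.53 CPM of that list. The 7 precursor markers summed to 40 and 40.8 CPM against 5.43 to 50.4 CPM in VISp, and Pdgfra was called higher in CBX. The 4 macrophage markers summed to 0.0968 and 20.2 CPM against 0 to 6.77 CPM, and Pf4 was called higher in CBX. The 8 microglia markers summed to 33.8 and 47.9 CPM against 0.719 to 281 CPM, with none called, and the 5 red blood cell genes to 0 and 0.345 CPM. The part of such RNA in the Trf values was not tested.

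Which genes followed Trf was asked over the 47 mouse values of astrocyte-like and oligodendrocyte-like cells, among 3431 genes. The 5 with the highest Pearson r of log2(mean CPM + 1) were Gjc3 (0.95), Cnp (0.94), Gabarapl2 (0.93), Plaat3 (0.92) and Ttc9 (0.91). These values are set mainly by the 2 classes, and over the 25 astrocyte-like mice alone they ran from 0.58 to 0.79. Gjc3, a connexin of oligodendrocytes, was at 811 ± 126 CPM (SD, n = 22) in oligodendrocyte-like mice, 332 and 378 CPM in the CBX mice, 9.27 to 189 CPM in MB/HB and 0 to 2.63 CPM in VISp astrocyte-like mice. Gjc3 was picked for its likeness to Trf over these same values, so its like order over the 4 groups is no separate result.

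Across the 81 CBX cells the 5 genes with the highest rank correlation with Trf, among 1638 genes detected in at least 20% of cells, were Ifnar2 (0.40), Btbd17 (0.34), Slc1a3 (0.33), Tmem9b (0.33) and Selenop (0.33). None is an oligodendrocyte marker of the list, but markers detected in fewer cells, as Cldn11 and Ugt8a with no read, could not appear. Slc1a3 is the glutamate transporter on the astrocyte list. The values are the highest of 1638 and had no test, so they do not tell which cell type the Trf goes with. For Ifnar2 the value was 0.15 in MouseID-614198 and 0.58 in MouseID-651221.

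Of the 40 further iron genes, 32 were tested, and 5 were called between CBX and VISp (median log2 change 0.16), against 10.1% of all genes tested. Hfe, a partner of the transferrin receptor, was at 74.6 and 88.9 CPM in CBX against 0 to 24.5 CPM in VISp (log2 change 2.93, SE 0.87, limma adjusted p = 0.0270), and Fech, the last enzyme of haem synthesis, at 119 and 150 CPM against 40.9 to 120 CPM (0.98, SE 0.31, 0.0365). Lower were Steap3, the ferrireductase of the transferrin endosome, at 0 and 1.51 CPM against 0 to 38.7 CPM (−3.60, SE 0.85, 0.0040), and Slc39a14, the ZIP14 metal importer, at 0.50 and 2.09 CPM against 9.31 to 55.5 CPM (−3.59, SE 0.54, 1.3e-05). Slc48a1, which moves haem out of endosomes, was at 102 and 132 CPM against 287 to 568 CPM (−1.81, SE 0.21, 1.71e-07).

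For MB/HB against VISp 1 of these 32 genes was called, against 11.2% of all genes, again Slc48a1, lower in MB/HB (log2 change −1.27, SE 0.16, limma adjusted p = 4.5e-07). In the contrast of CBX with MB/HB, where 8.56% of all genes were called, Steap3 (−3.35, SE 0.99, adjusted p = 0.0292) and Slc39a14 (−3.26, SE 0.63, 0.000693) were lower in CBX. Hmox1, the inducible haem oxygenase, was higher, at 46.2 and 56 CPM against 0 to 24.7 CPM (3.38, SE 0.98, 0.0251). Of 18 alternative settings, the call between CBX and VISp was lost in 4 for Hfe, 6 for Fech, 1 each for Steap3 and Slc39a14 and none for Slc48a1. Of 17 alternatives between CBX and MB/HB, it was lost in 5 for Steap3, 4 for Hmox1 and 2 for Slc39a14.

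Other ferritin-named columns added little. Of 6 Fthl17 genes, 1 had a read, in 1 cell. Ftl1-ps1, an annotated Ftl1 pseudogene, had a mean of 4.03 CPM over all cells, with 5.11 ± 1.15 CPM (SD, n = 22) in oligodendrocyte-like mice and 4.78 and 4.51 CPM in the CBX mice. Reads of near-identical ferritin copies can be split by alignment, so Ftl1 is uncertain to that extent.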

How the data were processed

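Single cells from 47 mice (2040 cells) had been deposited by the authors as 1 table of CPM, with each cell summing to 1000000. STAR and the mm10 build are named, per the submitters' processing notes. All 9484843 positive values were whole multiples of 1 read (tolerance 0.001 reads). Because the table is CPM, limma 3.58.1 (trend, two-sided, Benjamini-Hochberg at 0.05) was run on log2(mean CPM + 1) per mouse, for genes with a mean of at least 1 CPM in at least 2 mice, with 3 tissues in 1 model. A panel of 5000 columns was used: 132 listed and 4868 drawn at random. The other 27245 columns entered only depth and line sums, since each column used had to be listed by name. Cells were clustered (2000 variable genes without iron genes, 30 components, 15 neighbours, Leiden at resolution 1) and named from marker lists. No doublet caller was run; cells with at least 50% of another list's markers at 10 CPM were left out in an alternative. The members and lists were chosen with earlier results of these data known. Named genes were the 7 members, called iron genes (up to 4 a direction), the most abundant oligodendrocyte markers, the 5 genes most like Trf and ferritin-named columns; others were named after their values were seen. Results on some genes are not reported here. In the main tissue contrasts p-values measure the spread between mice, pooled over the 3 tissues with no term for vector. In VISp and MB/HB that spread includes differences between vectors. With 2 CBX mice it comes mostly from the other tissues. Among vectors, p-values measure the spread between mice of a vector. On simulated data, 200 genes with a VISp mean of at least 10 CPM were changed, and every mouse was given the VISp spread. The CBX against VISp test then recovered 30% of 2-fold and 72% of 4-fold changes. Slc40a1 and Cp were below that level in VISp, so these shares do not cover them. Alternatives are given in the closing section.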

Additional observations from a re-analysis of the deposited data

Results flagged for a closer look

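Trf in MB/HB astrocyte-like cells had 1 mouse far from the other 3: MouseID-615516 was at 1417 mean CPM and the next highest mouse at 204 mean CPM. The gap was 0.856 of the group's range, above Dixon's 95% critical value for 4 samples. The 7 members were each checked in this group, and chance flags about 1 in 20 such groups. In that mouse, 6 of 40 astrocyte-like cells held 4522 to 18395 CPM of Trf, and the 33 cells of cluster 4 averaged 71.1 CPM.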

How the results depend on the processing

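Trf and Fth1 kept their calls between CBX and VISp in all 18 alternatives run, of which 3 hold a single CBX mouse and take the spread from other mice, with log2 changes of 9.25 to 11.34 and −1.54 to −1.28. Genes called numbered 331 between CBX and VISp, against 752 with the mean over cells of log2(CPM + 1), 110 within library prefix AB-S40319 and 139 to 367 with single mice left out. Between CBX and MB/HB they numbered 280, against 834 and 104 to 290. The mean of log2 values moved the median of all genes to 0.43 and 0.63. Among vectors 1 gene was called, against 3 with no filter, 2 with the mean of log2 values, 0 with summed reads and 0 to 20 with single mice left out (20 without MouseID-638254). CBX Trf per marker CPM was 2.21, against 25.6 without Cnp and 1.88 to 2.58 with 1 mouse. Values that turned direction were all uncalled. With mice left out, Cp between CBX and VISp ran from −0.26 to 1.87, Mal from −1.03 to 0.20, Fth1 between MB/HB and VISp from −0.39 to 0.25 and Cp between CBX and MB/HB from −0.91 to 1.22. Without cells that carry other RNA, Slc11a2 between CBX and VISp was −0.095, Tfrc between MB/HB and VISp −0.75 and Tfrc between CBX and MB/HB 0.41. With the mean of log2 values Tfrc was −0.26 and 0.14 in those 2 contrasts and Cnp −0.68 between MB/HB and VISp. With the class called per cell Tfrc was −0.80 and 0.31, and within AB prefixes −0.0072. Fth1 between MB/HB and VISp was 0.011 without the MB/HB cells of the CBX cluster, and Cp between CBX and MB/HB was −0.018 with summed reads. The cause was not tested. Summed reads, ratios without Cnp and the cells of the CBX cluster were chosen after seeing the data. A planned edgeR test on recovered reads was not run, and limma on summed reads was run in its place. With clusters named by ratio of mean CPM, the CBX and MB/HB clusters stayed unnamed and no comparison could be made. No paired analysis was possible because the replicate labels are mouse identifiers that no 2 groups share. Depth limits the shares of cells with a read; no tissue comparison was rerun at another depth.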

Other observations

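Neuron-like cells of VISp differed from glia in the share of cells with a read of the uptake genes, but their mean CPM was not clearly higher. Tfrc, the transferrin receptor, had a read in 80 of 84 neuron-like cells (95.2%), against 31.7% of astrocyte-like and 31.3% of oligodendrocyte-like cells. With cells thinned to 50000 reads the shares were 83.3%, 25.2% and 26.1%. The mean over 3 mice was 73.9 ± 12.6 CPM (SD), within the range of the astrocyte-like mice. Slc11a2 had a read in 60.7% of neuron-like cells and 36.9% after thinning, against 17.2% and 24.9% in the thinned glial classes. Its mean over all cells was 25.8 CPM in neuron-like cells, below 35 CPM in astrocyte-like and 38.9 CPM in oligodendrocyte-like cells. Fth1 was at 1542 ± 105 CPM and Ftl1 at 282 ± 25.7 CPM in these 3 mice. These values describe classes from clusters, with no test.

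In MB/HB, 7 cells of MouseID-615516 were oligodendrocyte-like. Trf had a read in 6 of them, with a median over the 7 cells of 19567 CPM, and the median Fth1 was 18233 CPM. The cell without Trf had 897 CPM of Fth1, 742 CPM of Tfrc and 454 CPM of Slc40a1. In the other 6 cells Fth1 was at 11898 to 23875 CPM. RNA of another cell type was carried by 2 of the 7 cells.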
